A study of Mus musculus with 26 samples.

Results

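The genes described here encode the cAMP sensors of brown adipose tissue (BAT) and the small GTPases that follow one of them. They are the catalytic subunits of protein kinase A (PKA), Prkaca and Prkacb, the regulatory subunits Prkar1a, Prkar1b, Prkar2a and Prkar2b, the Epac exchange factors Rapgef3 (Epac1) and Rapgef4 (Epac2), and their substrates Rap1a and Rap1b. These 10 genes were chosen by name, with earlier results of these data known, from a table that lists 50686 genes. All 10 passed the filter on low counts that left 17286 genes for the tests. RNA-sequencing was carried out on BAT of male C57BL/6J mice, 12 to 16 weeks old, that had been kept for 2 weeks at thermoneutrality (29 °C in the study's methods, 30 °C in the labels). Of the control littermates (genotype label WT), 7 stayed at thermoneutrality and 5 were moved to 5 °C for 6 h. Of the fat-specific Afadin knockout mice (FAKO, genotype label Afadin KO), 7 stayed at thermoneutrality and 7 were moved to 5 °C for 6 h. The knockout joins a floxed Afadin gene (Afdn, also Mllt4) to a Cre driven by the adiponectin promoter, which is active in fat cells, so that other cells in the tissue are not targeted. In whole tissue, fewer cells of a type and less RNA per cell cannot be told apart.

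Noradrenaline released on brown fat in the cold raises cAMP in the adipocytes. In the PKA holoenzyme a dimer of regulatory subunits holds a pair of catalytic subunits inactive, and binding of cAMP to the regulatory subunits frees them to phosphorylate lipases, transcription factors and other targets. The type I regulatory subunits (Prkar1a, Prkar1b) are largely soluble, while the type II subunits (Prkar2a, Prkar2b) are mostly tethered by A-kinase anchoring proteins, and Prkar2b is the regulatory subunit known for its abundance in fat. Epac proteins bind cAMP independently of PKA and load Rap1 with GTP, and Afadin is one of the proteins that bind GTP-loaded Rap1.

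Total counts ran from 12705969 to 25732258 over the 26 libraries. All 8 brown adipocyte markers, among them Ucp1, Cidea and Adipoq, had a mean of at least 1 normalized count (CPM, scaled with TMM factors) in every group. Afdn did not have lower counts in the libraries labelled FAKO at 29 °C. It had 151 to 214 CPM in control mice and 154 to 231 CPM in mice labelled FAKO. At 5 °C it had 67.9 to 79.2 CPM in control mice and 53.3 to 65.3 CPM in mice labelled FAKO. The groups are therefore named by their labels. Control mouse 7 at 29 °C stood apart from its group, with 14.3% of its counts from mitochondrial genes against 33.9% to 40.5% in the other 6 control mice at 29 °C. Mice 8, 9, 12, 13 and 14 labelled FAKO at 29 °C were also below those 6, at 26.2% to 29.7%. Mice 10 and 11 labelled FAKO had 38.55% and 37.2%. The part of this share in the comparisons of the labels was not tested. Some marker sums of control mouse 7 for other tissues and cell types were the highest of its group. It had 5137 CPM summed over 6 skeletal muscle genes (at most 1390.0 in the other 6 mice) and 2791 CPM over 6 fibroblast genes (at most 1626). It had 1120.0 CPM over 5 red blood cell genes (at most 486), and its macrophage sum (212.3 CPM) was also the highest. Its endothelial (508.1 CPM), smooth muscle and pericyte (542.0 CPM) and lymphocyte (2.84 CPM) sums were the lowest of its group. The part of these markers in the results was not tested. Over all 26 libraries the skeletal muscle genes summed to 0.815 to 7039 CPM. Control mouse 7 had the lowest level of its group for Prkacb, Prkar1a, Prkar2b, Rap1a and Rap1b and the highest for Prkar2a, Rapgef3 and Rapgef4, and results that change without it are given both ways.

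Per length of merged exons (RPKM), the members ranged from abundant to scarce transcripts in control mice at 29 °C. Prkar2b was highest at 236 ± 20.6 RPKM (SD, n = 7). Prkaca followed at 74.8 ± 7.30 RPKM, Prkar1a at 26.8 ± 2.82, Rap1b at 18.1 ± 2.98, Rap1a at 12.4 ± 1.71 and Prkacb at 8.83 ± 1.22. Rapgef3 (4.12 ± 0.685 RPKM) and Prkar2a (3.84 ± 0.263) had overlapping ranges. The scarcest were Prkar1b (0.523 ± 0.0716 RPKM) and Rapgef4 (0.265 ± 0.0876), whose ranges also overlapped, as did those of Rap1b with Rap1a and of Rap1a with Prkacb. Without control mouse 7 the ranges named in the last sentence did not overlap. Rap1b was then at least 17.5 RPKM, Rap1a 12.6 to 13.5 and Prkacb at most 10.2. Prkar1b was at least 0.410 and Rapgef4 at most 0.299 RPKM. Prkar1b rested on 23 to 54 counts per library and Rapgef4 on 20 to 107, so that their levels are the least precise.

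**Figure D1:**
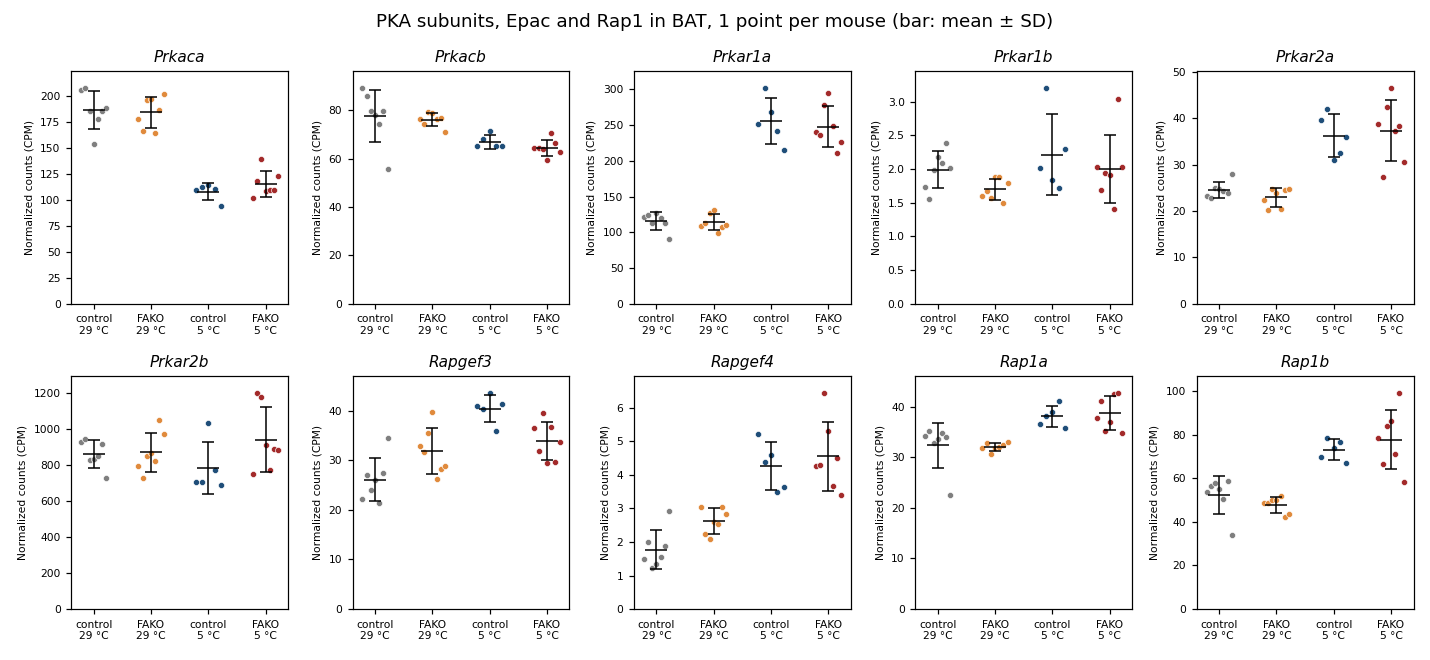
Normalized counts (CPM, y axes from 0) of the 10 genes, with 1 point per mouse in the 4 groups and the mean ± SD as black bars. Prkaca is lower and Prkar1a higher in every mouse at 5 °C than in every mouse at 29 °C, while Prkar2b lies between 690.1 and 1199.8 CPM at 5 °C and overlaps its range at 29 °C.

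After 6 h at 5 °C the transcripts of both catalytic subunits were lower, those of the regulatory subunits Prkar1a and Prkar2a were higher, and both Rap1 genes and Rapgef4 were higher, in both genotypes. In control mice 6 of the 10 genes rose (Prkar1a, Prkar2a, Rapgef3, Rapgef4, Rap1a, Rap1b), 2 fell (Prkaca, Prkacb) and 2 did not pass (Prkar1b, Prkar2b) at an FDR below 0.05. FDR stands here for the p of edgeR's quasi-likelihood test after Benjamini-Hochberg adjustment over all 17286 genes. Cold changed much of the transcriptome in these mice, with 31.6% of all genes tested rising and 33.4% falling, so that passing the test is common. In mice labelled FAKO 5 of the 10 rose, 2 fell and 3 did not pass, against 33.7% and 34.9% of all genes. The genes that did not pass there were Prkar1b, Prkar2b and Rapgef3. The median log2 fold change of the 10 was 0.36 in control mice and 0.26 in mice labelled FAKO, against -0.01 and -0.03 over all genes tested.

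**Figure D2:**
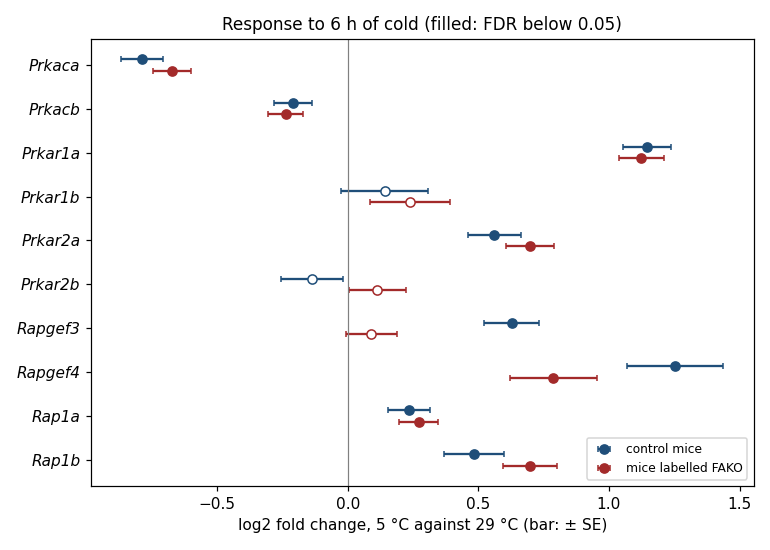
Log2 fold change at 5 °C against 29 °C (x axis) for the 10 genes (y axis) in control mice and in mice labelled FAKO, with SE as bars and filled points where the FDR was below 0.05. Prkaca and Prkacb lie left of 0 and Prkar1a right of 0 in both, and Rapgef3 is filled in control mice alone.

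Prkaca encodes the main catalytic subunit of PKA, and its gene lies on chromosome 8 of mm10 from 83972993 to 83996443 (ENSMUSG00000005469.10). Control mice at 29 °C had 153 to 207 CPM (median 185), and those at 5 °C had 109, 112, 114, 110.3 and 93.6 CPM. Mice labelled FAKO had 164 to 201 CPM (median 187) at 29 °C and 101 to 139 CPM (median 109.6) at 5 °C. All cold mice were below all thermoneutral mice of the same genotype. Prkaca fell by 0.79 (log2) in control mice (SE 0.08, FDR = 2.70e-09) and by 0.67 in mice labelled FAKO (SE 0.07, FDR = 5.40e-09). These 2 responses differed by 0.11 (SE 0.11, FDR = 0.650). Of all tested genes outside the 10, Akt2 (Pearson r = 0.976), Ptms (r = 0.974) and Fam102a (r = 0.971) had the log2 CPM most like that of Prkaca over the 26 libraries. These values describe libraries that share the step between temperatures. Within groups, after subtracting group means, the r with these genes were 0.773, 0.740 and 0.756.

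The fall of Prkacb (chromosome 3, 146729574 to 146812990), which encodes the other catalytic subunit, was smaller. The 5 control mice at 5 °C had 65.1, 68.1, 71.5, 65.1 and 65.2 CPM against 55.9 to 89.2 (median 79.5) at 29 °C, and these ranges overlapped. The lowest value at 29 °C, 55.9 CPM, was that of control mouse 7. Mice labelled FAKO had 71.2 to 79.1 CPM (median 76.3) at 29 °C and 59.4 to 70.4 (median 64.3) at 5 °C, with no overlap. Prkacb fell by 0.21 in control mice (SE 0.07, FDR = 0.0150) and by 0.24 in mice labelled FAKO (SE 0.07, FDR = 0.00287). Without control mouse 7 the fall in control mice was -0.30 with an FDR of 1.40e-05.

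Prkar1a, the type I regulatory subunit found in most tissues (chromosome 11 of mm10 from 109649405 to 109669656, ENSMUSG00000020612.16) was the regulatory gene that rose most. It had 90.7 to 127 CPM (median 119.8) in control mice at 29 °C and 251, 302, 268, 241 and 216 CPM in the 5 control mice at 5 °C, a fitted fold of 2.21. Mice labelled FAKO had 99.3 to 131 CPM (median 109.6) at 29 °C and 211 to 295 CPM (median 240.2) at 5 °C, a fold of 2.18. No cold mouse overlapped a thermoneutral mouse. The log2 fold change was 1.14 in control mice (SE 0.09, FDR = 2.40e-11) and 1.12 in mice labelled FAKO (SE 0.09, FDR = 6.89e-12), and the 95% interval of their difference ran from -0.27 to 0.22.

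The type II subunit Prkar2a (chromosome 9, 108689314 to 108750436), found in most tissues, also rose. The 5 control mice at 5 °C had 39.6, 42.0, 30.9, 32.4 and 36.0 CPM against 22.8 to 27.9 (median 24.2) at 29 °C. Mice labelled FAKO had 20.1 to 24.8 CPM (median 23.8) at 29 °C and 27.3 to 46.5 (median 38.3) at 5 °C, and in neither genotype did the temperatures overlap. Prkar2a rose by 0.56 (log2) in control mice (SE 0.10, FDR = 2.43e-05) and by 0.70 in mice labelled FAKO (SE 0.09, FDR = 2.53e-07). Prkar2b (chromosome 12, 31958476 to 32061296), the subunit abundant in fat, did not pass in either genotype. It had 708, 709, 1036, 776 and 690.1 CPM in the 5 control mice at 5 °C against 729.8 to 945 (median 853) at 29 °C. In mice labelled FAKO it had 729 to 1049 CPM (median 853) at 29 °C and 749 to 1199.8 (median 889) at 5 °C. The log2 fold changes were -0.14 in control mice (95% interval before adjustment -0.37 to 0.10, FDR = 0.318) and 0.11 in mice labelled FAKO (95% interval -0.10 to 0.33, FDR = 0.360). Without control mouse 18 at 5 °C, the highest of its group, the value in control mice was -0.26 (FDR = 0.0546). A change of the size seen for Prkar1a lies outside both intervals. With upper-quartile factors or library size alone as the scaling, the value was -0.24 or -0.26 in control mice and -0.04 or -0.21 in mice labelled FAKO, also not past the threshold.

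Prkar1b (chromosome 5, 139017306 to 139150001), a type I subunit known mainly from the nervous system, was scarce in every group. It had 1.56 to 2.38 CPM in control mice and 1.498 to 1.89 in mice labelled FAKO at 29 °C, and 1.71 to 3.20 and 1.40 to 3.04 CPM at 5 °C. The log2 fold changes were 0.14 (FDR = 0.469) and 0.24 (FDR = 0.171). Its exons overlap those of Gm15672 on the same strand over 341 bases, and 6.57% of the 100-base words in its transcripts also occur there, so that its counts are uncertain. Gm15672 itself had a mean of 0.520 CPM in control mice at 29 °C and 0.130 at 5 °C.

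Set against each other per length, these changes shifted the mix of PKA transcripts towards regulatory subunits and, among them, towards Prkar1a. Prkar1a made up 10.0 ± 0.672% of the summed regulatory RPKM in control mice at 29 °C (SD, n = 7) and 21.3 ± 2.99% at 5 °C (n = 5). In mice labelled FAKO it went from 9.89 ± 1.39% to 18.1 ± 2.77% (n = 7 each). Prkar2b went from 88.3 ± 0.685% to 76.4 ± 3.43% in control mice and from 88.6 ± 1.48% to 79.9 ± 3.15% in mice labelled FAKO, and remained the largest part in every mouse (lowest 71.5%). The ratio of summed regulatory to summed catalytic RPKM went from 3.21 ± 0.301 to 5.48 ± 0.586 in control mice and from 3.25 ± 0.271 to 5.97 ± 0.666 in mice labelled FAKO. Leaving Prkar2b out, it went from 0.375 ± 0.0523 to 1.28 ± 0.104 and from 0.368 ± 0.0232 to 1.19 ± 0.169. None of these quantities overlapped between temperatures within a genotype. The summed catalytic RPKM went from 83.6 ± 7.76 to 51.0 ± 3.51 in control mice and from 82.7 ± 6.04 to 53.7 ± 4.98 in mice labelled FAKO. The summed regulatory RPKM went from 267 ± 22.5 to 280 ± 41.4 and from 269 ± 30.0 to 322 ± 51.3, and its ranges overlapped in both genotypes. They are descriptions of the genes above and were not tested, and they count transcripts, not protein.

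**Figure D3:**
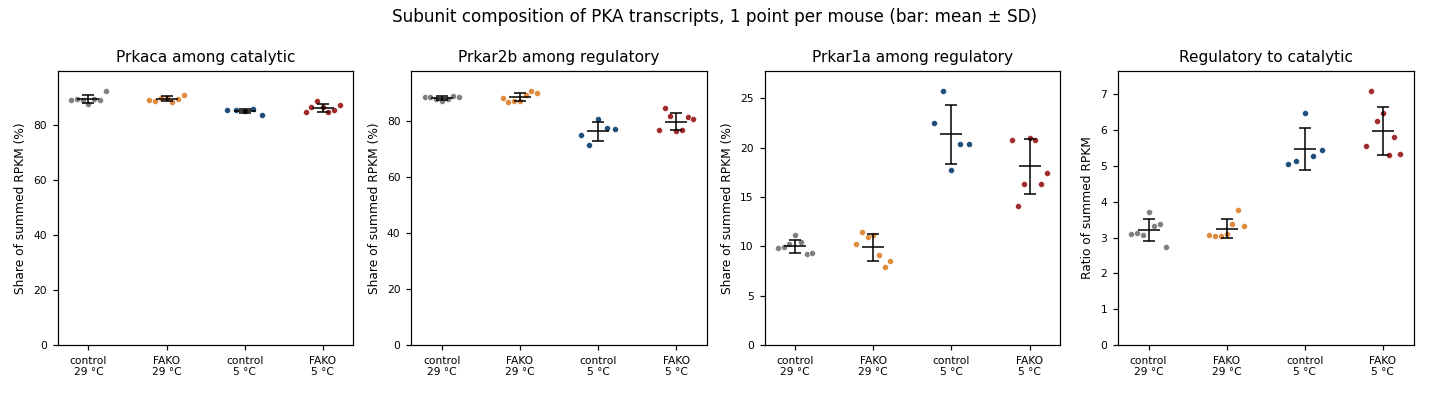
Shares of summed RPKM (%) and the ratio of summed regulatory to summed catalytic RPKM (y axes from 0), with 1 point per mouse in the 4 groups and the mean ± SD as black bars. The ratio lies between 2.75 and 3.78 at 29 °C and between 5.05 and 7.09 at 5 °C.

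Prkaca made up 89.4 ± 1.44% of the summed catalytic RPKM in control mice at 29 °C and 85.0 ± 0.880% at 5 °C, and 89.5 ± 0.811% and 86.2 ± 1.41% in mice labelled FAKO. This share depends on which length is used. The merged exons of Prkacb span 8772 bases against a coding length of 1194. With coding length it was 73.1 ± 3.05% and 64.6 ± 1.56% in control mice, a change of -8.57 percentage points in place of -4.42.

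Among the Epac genes, Rapgef4 had the largest relative rise of the 10 genes in control mice, from a low level. Rapgef4 (chromosome 2, 71981240 to 72257474), known mainly from brain and endocrine cells, had 1.22 to 2.94 CPM (median 1.55) in control mice at 29 °C and 5.22, 4.39, 4.59, 3.48 and 3.63 CPM in the 5 at 5 °C. Mice labelled FAKO had 2.10 to 3.05 CPM (median 2.60) at 29 °C and 3.41 to 6.44 (median 4.29) at 5 °C. In both genotypes all cold mice were above all thermoneutral mice. The log2 fold change was 1.25 in control mice (SE 0.19, FDR = 1.37e-06) and 0.79 in mice labelled FAKO (SE 0.17, FDR = 0.000166). The difference of these responses was -0.47 (SE 0.25, FDR = 0.363). In control mice the log2 fold change of Prkar1a was close, at 1.14 (SE 0.09), and the 2 genes were not tested against each other. Over the 26 libraries, 2810004N23Rik (r = 0.926), Rabl3 (r = 0.905) and Gpr89 (r = 0.899) had the log2 CPM most like Rapgef4. Within groups the r were 0.645, 0.584 and 0.606. Rapgef4 shares 337 exon bases with the antisense gene Rapgef4os2, which had at most 12 counts in any library. That was control mouse 19 at 5 °C, with 67 counts for Rapgef4.

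Rapgef3 (chromosome 15, 97744770 to 97767972) encodes Epac1, the Epac protein of most tissues outside the brain, and its cold responses lay furthest apart between the genotypes. Control mice had 21.3 to 34.4 CPM (median 26.0) at 29 °C and 40.9, 40.3, 43.5, 36.0 and 41.4 CPM at 5 °C, with no overlap. Mice labelled FAKO had 26.2 to 39.8 CPM (median 31.8) at 29 °C and 29.5 to 39.5 (median 33.8) at 5 °C, and every one of their cold mice lay within the range of the thermoneutral mice. Rapgef3 rose by 0.63 (log2) in control mice (SE 0.11, FDR = 8.84e-06). In mice labelled FAKO the log2 fold change was 0.09 (95% interval -0.10 to 0.28, FDR = 0.416).

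The difference of the 2 responses of Rapgef3 was -0.54 (SE 0.14), with an unadjusted p of 0.000883 and an FDR of 0.0578 in edgeR's test. It was therefore not past the threshold. Over the 33 alternatives tried the difference lay between -0.70 and -0.48 and the FDR between 0.0119 and 0.120, and 4 passed. Without control mouse 7, which had the highest Rapgef3 of its group, the difference was -0.62 (FDR = 0.0119). Of the 4 nuclear-retained RNAs (Malat1, Neat1, Meg3, Kcnq1ot1), all with a mean of at least 1 CPM in every group, the summed level moved in the same order of groups as Rapgef3. It was 8951 to 10570.0 CPM in control mice and 10420.0 to 11780.0 in mice labelled FAKO at 29 °C, and 14840.0 to 16270.0 and 10340.0 to 13580.0 CPM at 5 °C, and its part in the result was not tested. Neat1 and Kcnq1ot1 rose with cold in both genotypes, Malat1 in control mice alone, and Meg3 fell in mice labelled FAKO alone. The difference of the cold responses passed for Neat1 (-1.61, FDR = 0.00268) and Kcnq1ot1 (-0.48, FDR = 0.0327). It did not pass for Malat1 (-0.35, FDR = 0.137) or Meg3 (-0.55, FDR = 0.124). The 7 endothelial markers summed to 508 to 651 and 579 to 731 CPM at 29 °C and to 758 to 856 and 660.1 to 869.8 CPM at 5 °C, also not tested. This sum joins genes that moved in opposite directions. Pecam1, Kdr and Cdh5 rose with cold in control mice, while Tek, Tie1, Emcn and Vwf fell (FDR below 0.05). The same held in mice labelled FAKO, except that Vwf did not pass. The 5 red blood cell genes summed to 233 to 1120 CPM in control mice and 289 to 609 in mice labelled FAKO at 29 °C, and to 417 to 684 and 517 to 1497 CPM at 5 °C. All 5 rose with cold in mice labelled FAKO and 0 in control mice, and the difference of their cold responses passed for 0 (all 5 at an unadjusted p below 0.05). The 6 macrophage markers summed to 134 to 212 and 133 to 175 CPM at 29 °C and to 180.3 to 222 and 199 to 265 CPM at 5 °C. Mrc1 and Cd163 rose with cold in both genotypes, Csf1r and Adgre1 fell in both, and Cd68 and C1qa rose in mice labelled FAKO alone. The part of either list in the result was not tested. Rapgef3 shares 351 and 236 exon bases with the antisense genes Rapgef3os2 and Rapgef3os1, which had at most 11 and 7 counts in any library at 29 °C and 12 and 7 at 5 °C. The libraries keep strand, but the strand setting of the counting is not given in the sources used here.

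Per length, Rapgef3 made up 94.0 ± 1.05% of the summed Epac RPKM in control mice at 29 °C and 90.9 ± 1.17% at 5 °C, and 92.6 ± 1.56% and 88.7 ± 2.31% in mice labelled FAKO. Rapgef3 thus made up most of the Epac transcripts in each of the 4 groups.

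Both Rap1 genes rose, with the larger fold changes in Rap1b. Rap1b (chromosome 10, 117813871 to 117846035) had 33.9 to 58.8 CPM (median 55.2) in control mice at 29 °C and 69.7, 78.6, 73.8, 76.5 and 66.9 CPM at 5 °C. Mice labelled FAKO had 42.3 to 51.9 CPM (median 48.7) at 29 °C and 58.4 to 99.1 (median 78.6) at 5 °C, and in neither genotype did the temperatures overlap. Rap1b rose by 0.48 in control mice (SE 0.11, FDR = 0.000540) and by 0.70 in mice labelled FAKO (SE 0.10, FDR = 1.51e-06).

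Rap1a (chromosome 3, 105727267 to 105801336) had 22.4 to 35.1 CPM (median 34.0) in control mice at 29 °C and 36.7, 38.0, 39.0, 41.1 and 35.7 CPM at 5 °C. Mice labelled FAKO had 30.7 to 33.0 CPM (median 31.9) at 29 °C and 34.7 to 42.6 (median 37.8) at 5 °C. The temperatures did not overlap here either, but the steps were small. Rap1a rose by 0.24 in control mice (SE 0.08, FDR = 0.0117) and by 0.27 in mice labelled FAKO (SE 0.07, FDR = 0.00194), and both calls depend on the processing. With upper-quartile factors they were 0.13 (FDR = 0.155) and 0.11 (FDR = 0.167). With library size alone they were 0.13 and -0.04, while the median of all genes moved to -0.14 and -0.34. In a fit to the compared groups alone the call in control mice was lost too (0.19, FDR = 0.0795). Rap1a went from 40.8 ± 1.70% to 36.6 ± 0.979% of the summed Rap1 RPKM in control mice and from 42.6 ± 2.28% to 35.8 ± 4.05% in mice labelled FAKO, a description that was not tested. Gm9392 holds 2.53% of the 100-base words of Rap1a and had at most 17 counts in any library.

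Between mice labelled FAKO and control mice, 0 of the 10 genes passed at 29 °C, where 0.081% of all genes tested did, and 0 passed at 5 °C, where 0.139% did (FDR below 0.05 in edgeR). At an unadjusted p below 0.05 there were 2 genes at each temperature, Rapgef3 and Rapgef4 at 29 °C and Rapgef3 and Prkar2b at 5 °C, against 7.65% and 13.4% of all genes tested. DESeq2 also called 0 of the 10 at either temperature, where it called 48 and 197 of all 17286 genes. The 10 log2 fold changes at 29 °C ran from -0.23 (Prkar1b) to 0.56 (Rapgef4), and those at 5 °C from -0.25 (Rapgef3) to 0.26 (Prkar2b).

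The Epac genes were the ones that differed most between the labels at 29 °C. All 7 mice labelled FAKO were above the mean of the control mice for Rapgef3 and for Rapgef4. For each of these genes, 2 of the 7 were above every control mouse. All 7 were also on the same side of the control mean, below it, for Prkar1b and for Rap1b. The log2 fold changes were 0.29 for Rapgef3 (95% interval 0.10 to 0.48, FDR = 0.419) and 0.56 for Rapgef4 (95% interval 0.21 to 0.90, FDR = 0.380). Both calls turn on control mouse 7, without which they were 0.38 (FDR = 0.0496) and 0.76 (FDR = 0.0231). At 5 °C Rapgef3 pointed the other way, with all 7 mice labelled FAKO below the mean of the control mice and a log2 fold change of -0.25 (95% interval -0.46 to -0.05, FDR = 0.293). Prkar2b had 0.26 (95% interval 0.03 to 0.50, FDR = 0.332). For Prkaca, the interval of the difference between the labels ran from -0.16 to 0.13 at 29 °C and from -0.06 to 0.25 at 5 °C. For Prkar1a it ran from -0.19 to 0.14 and from -0.23 to 0.14. The difference of the cold responses passed for 0 of the 10 genes, where 1.16% of all genes tested passed. At an unadjusted p below 0.05 there was 1 (Rapgef3), against 16.2% of all genes tested. DESeq2 called 1, Rapgef3, at -0.52 with an FDR of 0.0278, where it called 488 of all 17286 genes and edgeR called 200.

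The promoters of the members were searched for the cAMP response element (CRE), the site that CREB, a transcription factor phosphorylated by PKA, is known to bind. The letters searched were TGACGTCA for the full element, TGACG for its core, which the full element holds on both strands, and the direct repeat with a spacer of 1 base (DR1) known for PPAR with RXR. Both strands of the 250 bases before each RefSeq start site were searched, in 22 windows of 9 of the 10 genes. Rap1a was not searched. The full CRE was found in 2 windows, 1 of the 6 of Prkar1a and the window of Rap1b. It occurs in 1.55% of the 32851 RefSeq windows of mouse genes. A core site was found in 8 windows of 6 genes, against 17.8% of all windows, and was in no window of Prkar2a, Prkar2b or Rapgef4. The windows of Prkar1a before the starts at 109650862 and 109650949 overlap and share a core site, which is thus counted in both. The PPAR repeat was in none of the 22, against 0.0335% of all windows. The windows of both genes with a full CRE and of Prkaca, which fell the most, are given below with full and core sites in capitals (RefSeq, GRCm38.p6, coding strand, 5′ to 3′). That of Rap1b is shown without its last 31 bases. Another annotation (GENCODE) starts Rap1b inside this window, at 117846035, so that by it the CRE shown lies in the first exon. A match describes these letters and is not a measured binding site.
Prkar1a, chr11:109650699-109650948, plus strand: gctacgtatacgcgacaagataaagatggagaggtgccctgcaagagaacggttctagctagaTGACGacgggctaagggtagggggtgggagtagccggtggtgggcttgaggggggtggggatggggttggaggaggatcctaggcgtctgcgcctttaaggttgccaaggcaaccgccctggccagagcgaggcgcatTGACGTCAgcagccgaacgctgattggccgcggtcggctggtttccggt
Rap1b, chr10:117846006-117846224, minus strand: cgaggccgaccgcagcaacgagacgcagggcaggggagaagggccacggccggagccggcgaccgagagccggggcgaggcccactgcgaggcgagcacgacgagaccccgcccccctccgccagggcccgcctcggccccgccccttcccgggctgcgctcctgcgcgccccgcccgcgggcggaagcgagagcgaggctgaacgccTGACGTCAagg
Prkaca, chr8:83972728-83972977, plus strand: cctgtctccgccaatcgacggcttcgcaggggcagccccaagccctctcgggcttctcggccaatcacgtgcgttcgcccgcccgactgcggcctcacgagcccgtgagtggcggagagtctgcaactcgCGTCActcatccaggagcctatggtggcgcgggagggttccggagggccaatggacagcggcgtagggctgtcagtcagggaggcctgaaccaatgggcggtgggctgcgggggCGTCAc
In Prkar1a the full CRE begins 49 bases before the start site and a further core site 187 bases before it. In Rap1b the full CRE begins 42 bases before the start. In Prkaca there are core sites 120 and 6 bases before the start. Prkar1a and Rap1b both rose in the cold and Prkaca fell, while Rapgef4, with the largest relative rise in control mice, had neither the full nor the core site in its window. Prkacb, which fell, Rapgef3, which rose in control mice, and Prkar1b, which did not pass, each had a core site. Prkar2a, which rose, and Prkar2b, which did not pass, had none.

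The genes that work beside the 10 were called for cold about as often as all genes tested. Of 66 genes in 6 hand-written lists, 60 were tested, and in control mice 18 rose and 24 fell, against 31.6% and 33.4% of all genes. In mice labelled FAKO 18 rose and 28 fell, against 33.7% and 34.9%. The median log2 fold changes over the 60 genes were -0.13 and -0.06. In the comparisons of the labels 0 of the 60 passed at either temperature in edgeR, with 4 genes at an unadjusted p below 0.05 at 29 °C and 14 at 5 °C, against 7.65% and 13.4% of all genes. DESeq2 called 3 of them at 5 °C, where it called 197 of all genes and edgeR called 24.

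A-kinase anchoring proteins tether PKA to membranes and to its substrates, and 22 of the 27 listed were tested. In both genotypes 8 rose and 5 fell. Of all genes tested, 31.6% rose and 33.4% fell in control mice, and 33.7% and 34.9% did so in mice labelled FAKO. Akap12, a scaffold at the plasma membrane that binds adrenergic receptors, went from 40.2 ± 3.50 to 363 ± 140.4 CPM (SD) in control mice, or by 3.17 in log2 units (SE 0.31, FDR = 7.99e-10). In mice labelled FAKO it was 3.20 (SE 0.29). Akap2 rose by 1.39 and 1.28. Akap5, another scaffold of receptors at the membrane, fell from 8.35 ± 2.49 to 1.25 ± 0.225 CPM in control mice. Its log2 fold change was -2.72 there (SE 0.26, FDR = 6.05e-10) and -2.74 in mice labelled FAKO. Akap7 fell too, with log2 fold changes of -1.48 and -1.15. Transcripts of anchoring proteins thus moved in both directions.

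**Figure D4:**
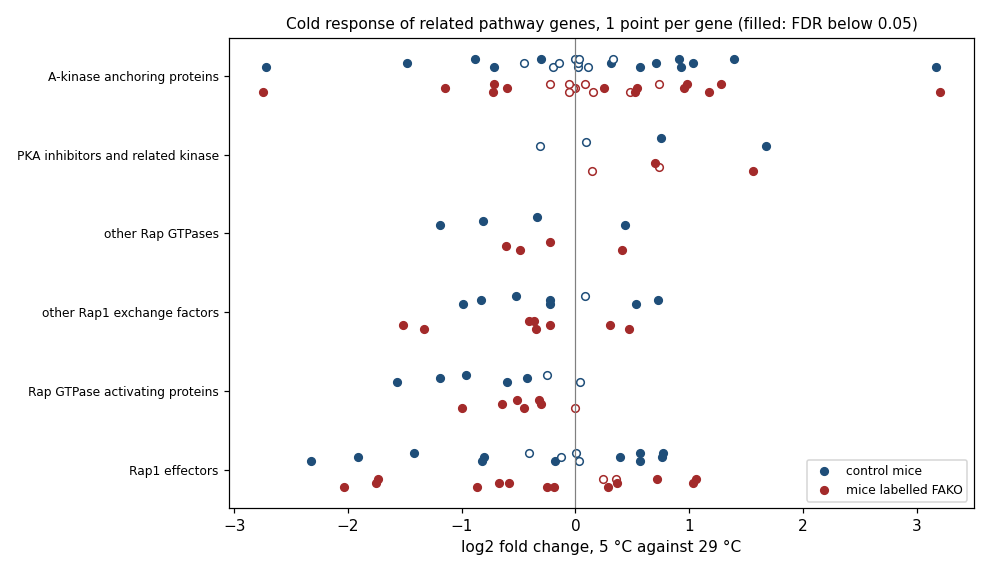
Log2 fold change at 5 °C against 29 °C (x axis) for the tested genes of 6 lists (y axis), with 1 point per gene in control mice and in mice labelled FAKO, filled where the FDR was below 0.05. Akap12 is the point furthest right (3.17 and 3.20) and Akap5 the one furthest left (-2.72 and -2.74), and 0 of the Rap GTPase activating proteins rose.

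Of the 4 listed inhibitors and relatives of the catalytic subunit, 2 rose in both genotypes and 0 fell. The shares of all genes tested that rose were 31.6% in control mice and 33.7% in mice labelled FAKO, and 33.4% and 34.9% fell. Pkig, a PKA inhibitor protein, rose from 5.70 ± 1.02 to 18.3 ± 3.26 CPM in control mice (log2 fold change 1.68, SE 0.13, FDR = 1.08e-11) and by 1.56 in mice labelled FAKO. Prkx, a related kinase that also binds regulatory subunits, rose by 0.75 and 0.70.

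On the Rap1 side, 0 of the 7 tested GTPase activating proteins, which switch Rap off, rose, while 5 fell in control mice and 6 in mice labelled FAKO. Of all genes tested, 31.6% and 33.7% rose and 33.4% and 34.9% fell, and the difference from them was not tested. The log2 fold changes were -1.57 and -0.997 for Rap1gap2 and -1.19 and -0.65 for Rap1gap. The exchange factors other than Epac, which switch Rap1 on, were split. In control mice 2 of 8 rose and 5 fell, and in mice labelled FAKO 2 rose and 6 fell. Rapgef5 rose by 0.73 and 0.31 and Rapgef1 by 0.53 and 0.47, while Rasgrp3 (-0.99 and -1.33) and Rasgrp2 (-0.83 and -1.52) fell. The call of Rapgef1 in mice labelled FAKO was lost with library size alone as the scaling, and that of Rapgef5 with library size alone, with upper-quartile factors (0.15, FDR = 0.226), without mouse 13 at 29 °C (FDR = 0.0752) and without mouse 14 at 29 °C (FDR = 0.0743). The list of the other Rap GTPases held the 3 Rap2 genes and Rap1gds1, which encodes a GDP dissociation stimulator and not a GTPase. Of these 4, Rap2c rose (0.43 and 0.41) and Rap2b (-1.19 and -0.49), Rap2a (-0.81 and -0.61) and Rap1gds1 (-0.34 and -0.22, named here after its values were seen) fell. The call of Rap2b in mice labelled FAKO was lost without mouse 23 at 5 °C (-0.42, FDR = 0.0541) or mouse 28 (-0.39, FDR = 0.0639), and that of Rap2c with library size alone (0.087, FDR = 0.298).

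The 15 Rap1 effectors, which include Afdn, also went both ways. In control mice 5 rose and 6 fell, against 31.6% and 33.4% of all genes tested. Among mice labelled FAKO 5 rose and 8 fell, against 33.7% and 34.9%. Vav2 had log2 fold changes of -2.33 and -2.04, and Radil, which acts in cell adhesion, of -1.91 and -1.75. Rasip1, known from endothelial cells, rose by 0.77 and 0.72, and Tiam1, an exchange factor for Rac, by 0.76 and 1.03.

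The difference of the cold responses passed for 3 of the 60 list genes, against 1.16% of all genes tested, and all 3 differences were negative. Among all genes tested, 150 that passed had a negative difference and 50 a positive one. Nbea and Arap3 had the more negative change in mice labelled FAKO, and Braf the smaller rise. Nbea (neurobeachin), an anchoring protein, had log2 fold changes of -0.14 in control mice and -0.60 in mice labelled FAKO, a difference of -0.46 (SE 0.09, FDR = 0.0202). Arap3, which binds Rap1, had -0.12 and -0.58, a difference of -0.46 (SE 0.11, FDR = 0.0447). Braf, a kinase of the MAP kinase cascade, rose by 0.57 and 0.29, a difference of -0.28 (SE 0.07, FDR = 0.0423). Nbea passed in all 26 fits that left out 1 mouse, whereas Arap3 was lost in 19 and Braf in 18 of them, and all 3 were lost with no filter on low counts. The summed nuclear-retained RNAs given beside Rapgef3 were likewise lowest relative to control in mice labelled FAKO at 5 °C, and their part was not tested.

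Within groups, after subtracting group means, the log2 CPM of Rap1a was most like that of Prkacb (r = 0.788) and Rap1b (r = 0.640), and Prkaca was most like Prkar2b (r = 0.596). Prkaca and Prkar1a had an r of -0.887 over the 26 libraries and 0.298 within groups. These values describe 26 libraries that share scaling and, in control mouse 7, a library far from the others for Rap1a, Rap1b and Prkacb.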

How the data were processed

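BAT libraries of 26 mice were grouped by the sample labels into 4 groups. The authors sequenced rRNA-depleted, stranded total RNA as single reads of 100 bases, aligned them to mm10 with STAR 2.5.2b and assigned them to genes with featureCounts 1.5.2 (GENCODE M13). The deposited values are raw counts without normalization. All columns of the table were used. Multi-mapped reads and the strand setting of the counting are not given in the sources used here. Reads were not used here.

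Genes were kept with filterByExpr by group (17286 of 50686). Counts were tested with edgeR 4.0.16 under R 4.3.3, by the quasi-likelihood test in legacy mode, after the study's model of 1 term per group, with TMM factors and Benjamini-Hochberg adjustment over all genes tested (FDR 0.05). The 26 mice share 1 estimate of the spread. CPM and RPKM use TMM-scaled library sizes, and lengths are merged exons of GENCODE M21. Log2 CPM had a prior count of 2. Intervals at 95% are the log2 fold change plus or minus the normal quantile times the SE, and were not adjusted over genes. Symbols matched 50376 genes.

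The 10 genes, the 6 pathway lists and the marker lists were chosen with earlier results of these data known. From each pathway list, up to 2 genes with the largest rise and up to 2 with the largest fall in control mice were named, if they passed the threshold and had 1 CPM or more on average, and every gene past it in a comparison of the labels or of the cold responses. The mice of a group differed by more than sampling noise in all 73 pairs (lowest chi-square per gene 5.17). The edgeR and DESeq2 fits were run on simulated counts with a temperature change alike in both genotypes and no difference between the labels. The other steps were not tested this way. The alternatives were DESeq2 1.42.0, other scalings and filters, the revised quasi-likelihood method, a fit to the compared groups alone, other lengths, and leaving out each mouse in turn.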

Additional observations from a re-analysis of the deposited data

Results flagged for a closer look

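Among the 40 sets of values (10 genes in 4 groups), 7 had a mouse far from the rest of its group by Dixon's test at 95%, which chance does in about 1 in 20 groups. Control mouse 7 at 29 °C accounted for 4 of them, with the lowest Prkar1a (90.7 CPM), Rap1a (22.4 CPM) and Rap1b (33.9 CPM) and the highest Prkar2a (27.9 CPM) of its group. This library also had the lowest share of mitochondrial counts of all 26, at 14.3%. The other such values were Prkaca in control mouse 21 at 5 °C, the lowest of its group at 93.6 CPM, and Prkar2b in control mouse 18 at 5 °C, the highest at 1036 CPM. Prkar1b was highest in mouse 27 labelled FAKO at 5 °C, at 3.04 CPM, which rests on few counts.

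The cold responses of 3 list genes differed between the genotypes in edgeR's test of the difference itself, with values of -0.46 for Nbea, -0.46 for Arap3 and -0.28 for Braf.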

How the results depend on the processing

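The counts of the 10 genes past the threshold for cold stayed at 7 or 8 of 10 in control mice and 6 or 7 of 10 in mice labelled FAKO in every setting tried, and the gene lost was Rap1a. Leaving out 1 mouse at a time gave 8 and 7 each time. The count between the labels at 29 °C was 0 to 2 and that for the difference of the cold responses 0 to 1 when 1 mouse was left out, the highest in both cases without control mouse 7. The share of all genes called without that mouse is not given here. The difference of the cold responses also gave 1 gene, Rapgef3, with DESeq2, with upper-quartile factors and with at least 10 counts in every mouse, and 0 with the others. Over all genes, these 3 settings called 488 of 17286, 273 of 17286 and 258 of 12718. For the list genes, DESeq2 called 3 between the labels at 5 °C in place of 0. For the difference of the cold responses, 1 list gene passed with RLE factors, 0 with no filter and 1 to 3 when 1 mouse was left out. With library size alone, the median of all genes moved to -0.14 and -0.34 for cold in control mice and in mice labelled FAKO and to 0.13 between the labels at 29 °C. In mice labelled FAKO the log2 fold changes for cold then changed sign to -0.079 (Prkar1b), -0.21 (Prkar2b), -0.22 (Rapgef3), -0.045 (Rap1a) and -0.040 (Braf). With upper-quartile factors those of Prkar2b and Rapgef3 were -0.041 and -0.065. For cold in control mice, Prkar1b ranged from -0.021 (without control mouse 17) to 0.22 when 1 mouse was left out. The change of the Prkaca share with cold was -8.57 and -6.37 percentage points with coding length and -6.65 and -4.91 with the longest transcript, in control mice and mice labelled FAKO, where the length used for Prkacb is 1194 and 4347 bases in place of 8772. No paired analysis was possible because the groups share no replicate numbers. Prkar1b and Rapgef4 have too few counts for small differences to be detectable.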
